A study of Mus musculus with 6 samples.

Results

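The period, cryptochrome and PAR bZIP clock genes were examined in mouse skeletal muscle that expressed a constitutively active aryl hydrocarbon receptor (AHR). The genes were chosen by name as Per1, Per2, Per3, Cry1, Cry2, Ciart, Dbp, Tef, Hlf and Nfil3. All 10 were found, once each, among the 49315 genes of the count table. RNA was taken from the gastrocnemius (calf muscle) of C57BL6J males, which are inbred mice. The muscles were injected with an AAV9 virus at 5 months of age and taken 5 months later. One group received AAV9-HSA-CAAHR, which encodes a mouse AHR without its ligand-binding domain (CAAHR, replicates 31, 34 and 36). The other received AAV9-HSA-GFP, which encodes a green fluorescent protein (GFP, replicates 42, 43 and 46). In both viruses the promoter of human skeletal actin (HSA) limits the transgene to muscle fibres, so other cells of the muscle were not the intended site of expression. All 6 muscles carried a virus, and uninjected muscle was not analysed here.

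The circadian clock is a transcriptional feedback loop that runs in most cells, muscle fibres included. BMAL1 (gene Arntl) and CLOCK bind E-box sequences and drive the period and cryptochrome genes, whose proteins return to the nucleus and repress them. The same pair drives Dbp, Tef and Hlf, the PAR bZIP factors, which activate genes through a sequence called the D-box, and Nfil3 (also E4BP4) represses through that same sequence. AHR, BMAL1, CLOCK and the period proteins share the PAS protein domain. In muscle, clock output is known for timing the use of glucose and fat. The mice were housed under a light and dark cycle, but the hour at which the muscles were taken was not given in the sources used here. Each muscle gave 1 time point, so the values below are levels and not rhythms.

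Library totals ranged from 43432994 to 58825752 counts, and the members had between 476 and 18824 counts in each library. Values are CPM, counts scaled to the same effective library total with TMM factors. The edgeR quasi-likelihood test compared the groups, and p-values were adjusted by the Benjamini-Hochberg method over 15847 tested genes. Ahr was at 9.97, 22.8 and 17.3 CPM in CAAHR replicates 31, 34 and 36, against 1.87 to 2.55 CPM in GFP muscles. Of 6 listed AHR targets, Ahr included, 6 were higher in CAAHR muscles with an adjusted p under 0.05. The vector carries Ahr coding sequence, so the Ahr counts of CAAHR muscles can include its transcript, and its rise is not a response. The fibre transcripts Acta1 and Ckm were at 14426 CPM or more in every library, as the muscle label requires. Of the 8 listed fibre genes 2 were called, both lower in CAAHR muscles, Acta1 1.67-fold (edgeR, adjusted p 0.00895) and Ckm 1.65-fold (edgeR, adjusted p 0.0251). Of the 8, 4 were fitted higher and 4 lower, with a median log2 fold change of -0.14. Their part in the clock gene values was not tested. These counts come from whole muscle, in which fewer cells of a type and less RNA per cell cannot be told apart. Slow-fibre transcripts set CAAHR replicate 34 apart. Their 9 listed genes had a summed level of 2783, 649 and 2518 CPM in CAAHR replicates 31, 34 and 36, and of 228 to 461 CPM among GFP muscles. All 9 were fitted higher in CAAHR muscles, with a median log2 fold change of 2.56. Of them 1 was called by edgeR, 8 by DESeq2 and 2 by limma-voom. Of the fibre genes, Mb, Myh1, Myh2 and Des were also lowest in replicate 34 among CAAHR libraries, and Acta1, Ckm, Ttn and Myh4 were highest there.

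Hlf was the 1 clock member called by edgeR, at a level 1.44-fold lower in CAAHR muscles. Of the 10 members, 10 passed the filter on low counts, 1 was called lower and 0 were called higher by edgeR at an adjusted p under 0.05. Across all tested genes 7.60% were called, with 4.57% lower and 3.04% higher, so 1 in 10 members was near the background. At an unadjusted p under 0.05 there were 5 lower members (Per1, Cry1, Ciart, Dbp and Hlf) and 1 higher member (Per2), against 23.9% of all tested genes. DESeq2 called 2 members, Hlf and Per2, and it called more genes than edgeR in all, 1923 of 15847 against 1205. The groups did not overlap for 5 members, where they did not overlap for 29.9% of all tested genes. Of the 10, 4 lay wholly below GFP (Cry1, Ciart, Dbp and Hlf) and Per2 lay wholly above it, against 14.9% and 15.0% of all tested genes. The median log2 fold change of the members was -0.10, beside 0.01 over all tested genes.

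**Figure D1:**
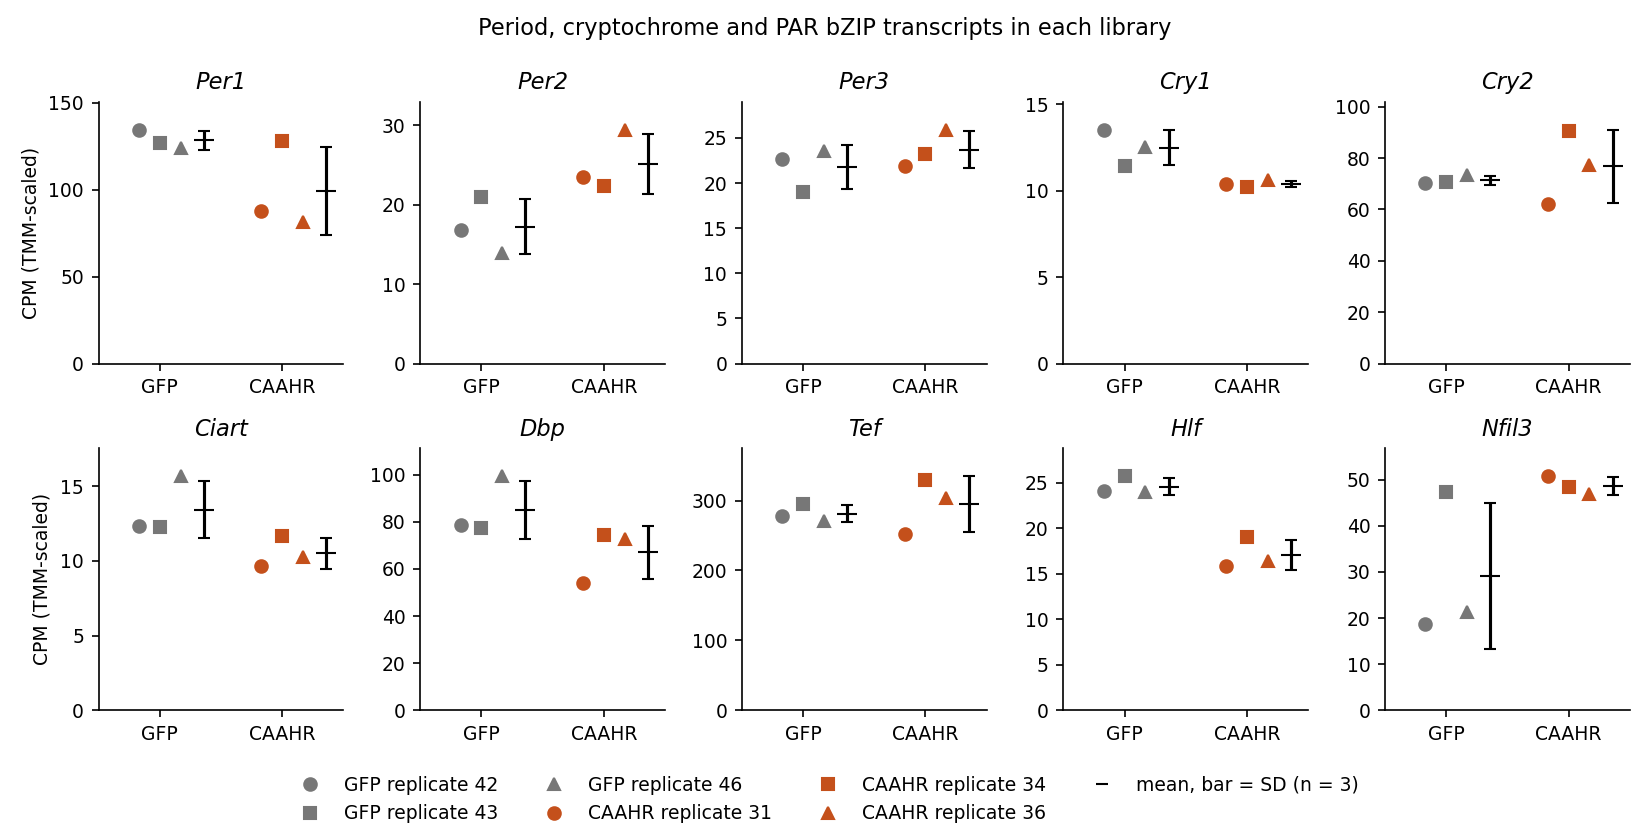
TMM-scaled CPM (vertical axis, from 0) of the 10 members in each GFP (grey) and CAAHR (orange) library, with the group mean and SD (n = 3) in black. Hlf, Cry1, Ciart and Dbp were lower in each CAAHR library than in any GFP library, Per2 was higher, and GFP replicate 43 lay among the CAAHR libraries for Nfil3.

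The PAR bZIP factors did not move as a group. Hlf, hepatic leukaemia factor, is an activator at D-boxes, and its gene spans chromosome 11 from 90336536 to 90390895 in GRCm38. It was at 15.8, 19.0 and 16.4 CPM in CAAHR replicates 31, 34 and 36, and at 24.1, 25.7 and 23.9 CPM in GFP replicates 42, 43 and 46. The lowest GFP library lay above the highest CAAHR library. Its log2 fold change was -0.52 ± 0.10 (SE), with a 95% interval of -0.75 to -0.30 and an adjusted p of 0.0151 by edgeR. Without CAAHR replicate 34, the CAAHR library with the lowest slow-fibre sum, it was -0.62. With slow-fibre content as a covariate it was -0.28 ± 0.18, and the call was lost (edgeR, adjusted p 0.457). That covariate, the mean log2 CPM of the slow-fibre genes, was 5.39 to 7.49 in CAAHR and 3.83 to 4.83 in GFP libraries. It was higher in every CAAHR library than in any GFP library, so that fit cannot tell it apart from the vector. Leaving out CAAHR replicate 31, CAAHR replicate 36 or GFP replicate 43 also ended the call of Hlf (edgeR, adjusted p 0.0510 to 0.0665).

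The promoter of Hlf is shown because Hlf was the called member. It is RefSeq sequence of build GRCm38.p6, minus strand, at chr11:90390868-90391167, from 250 bases before to 50 after the gene's start. Capitals mark GCGTG or its reverse complement CACGC, the core letters bound by AHR, and TGACGTCA, the cAMP response element.
Hlf: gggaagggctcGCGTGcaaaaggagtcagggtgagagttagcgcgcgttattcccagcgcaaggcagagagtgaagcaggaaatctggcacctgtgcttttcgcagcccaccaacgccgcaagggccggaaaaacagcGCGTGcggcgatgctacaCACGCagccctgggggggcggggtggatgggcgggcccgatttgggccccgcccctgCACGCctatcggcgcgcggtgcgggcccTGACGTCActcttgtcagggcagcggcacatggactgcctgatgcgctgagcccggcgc
The window held 4 copies of the AHR core and 1 cAMP response element. The AHR core is short, and 32.4% of 32851 promoter windows of 300 bases held it on either strand. The cAMP response element was in 1.79% of them. A promoter was matched for 9 of the 10 members, with 11 windows in all because Per1 and Tef had a pair each. The AHR core was in 8 of the 11 windows, which belonged to 8 members. Nfil3 was the 1 matched member without it.

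Dbp, D site albumin promoter binding protein, is among the most rhythmic transcripts of many tissues, and its gene spans chromosome 7 from 45705088 to 45710203. It was at 54.1, 74.4 and 72.8 CPM in CAAHR replicates 31, 34 and 36, and at 78.8, 77.2 and 99.4 CPM in GFP replicates 42, 43 and 46. CAAHR replicate 34 and GFP replicate 43 were close together, and the groups did not overlap. Dbp had a log2 fold change of -0.34 ± 0.15, with a 95% interval of -0.67 to -0.01, and it did not pass (edgeR, adjusted p 0.193). Exons of Dbp share 18.0% of their length with Sphk2, a sphingosine kinase gene on the opposite strand, and the methods make strand-specific counting depend on the library kit, whose strandedness was not given in the sources used here. Sphk2 lay between 14.9 and 17.5 CPM in all 6 libraries and its log2 fold change was 0.15 ± 0.09.

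Tef, thyrotroph embryonic factor, was the most abundant member, encoded on chromosome 15 from 81802421 to 81826863. It was at 252, 329 and 303 CPM in CAAHR replicates 31, 34 and 36, and at 277, 294 and 271 CPM in GFP replicates 42, 43 and 46. The CAAHR libraries lay on both sides of the GFP range. Tef had a log2 fold change of 0.07 ± 0.12, with a 95% interval of -0.20 to 0.34 (edgeR, adjusted p 0.786), and its sign turned with upper quartile scaling or without CAAHR replicate 34.

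Nfil3, the repressor at D-boxes, encoded on chromosome 13 from 52967209 to 52981073, had the widest spread of all members among GFP muscles. It was at 18.7, 47.3 and 21.3 CPM in GFP replicates 42, 43 and 46, a 2.53-fold range. In CAAHR replicates 31, 34 and 36 it was at 50.8, 48.5 and 46.9 CPM, a 1.08-fold range. GFP replicate 43 lay at the CAAHR level, above CAAHR replicate 36, while the other GFP libraries lay far below. For Nfil3 the log2 fold change was 0.74 ± 0.37, with a 95% interval of -0.17 to 1.66, and it did not pass (edgeR, adjusted p 0.292). Without GFP replicate 43 it was 1.28 and passed (edgeR, adjusted p 0.000800), so that library decided the call.

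GFP replicate 43 also stood apart in transcripts of the glucocorticoid response, the programme driven by stress steroids. It was the highest GFP library for 10 of the 11 listed genes, and over all tested genes it was the highest GFP library for 32.5%. Fkbp5, a chaperone gene of that response, was at 34.2, 94.4 and 43.4 CPM in GFP replicates 42, 43 and 46, and at 81.5, 99.8 and 113 CPM in CAAHR replicates 31, 34 and 36. Zbtb16, another, was at 61.9, 133 and 58.4 CPM in the GFP libraries and at 148 to 157 CPM in the CAAHR libraries. Fkbp5 and Zbtb16 were chosen after their values were seen. As with Nfil3, the other GFP libraries lay below all CAAHR libraries and replicate 43 lay near them. The 11 genes summed to 828, 1232 and 839 CPM in the GFP libraries and to 1131 to 1215 CPM in the CAAHR libraries. Of the 11, 1 was called higher (Klf15) and 2 lower (the metallothioneins Mt1 and Mt2) by edgeR, with a median log2 fold change of 0.30. The part of this response in the Nfil3 values was not tested.

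Immune markers were also highest in GFP replicate 43. The 7 macrophage genes in the table summed to 35.2, 75.1 and 47.8 CPM in GFP replicates 42, 43 and 46 and to 15.3 to 27.7 CPM in CAAHR libraries. The 8 lymphocyte genes summed to 126, 410.0 and 259.5 CPM in the GFP libraries, most of it Ighm, an antibody heavy chain gene, and to 10.4 to 20.4 CPM in the CAAHR libraries. Among tested genes of these lists, 1 of 7 macrophage and 4 of 6 lymphocyte genes were called lower by edgeR, while DESeq2 called 6 and 5 of them and limma-voom 2 and 2. By quantitative PCR of selected immune genes, the paper found them not lower in CAAHR muscle than in muscle without virus. It takes this to mean that the GFP virus, carried by the reference group here, provoked a local immune response. The part of immune cells in the Nfil3 values of either group was not tested.

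**Figure D2:**
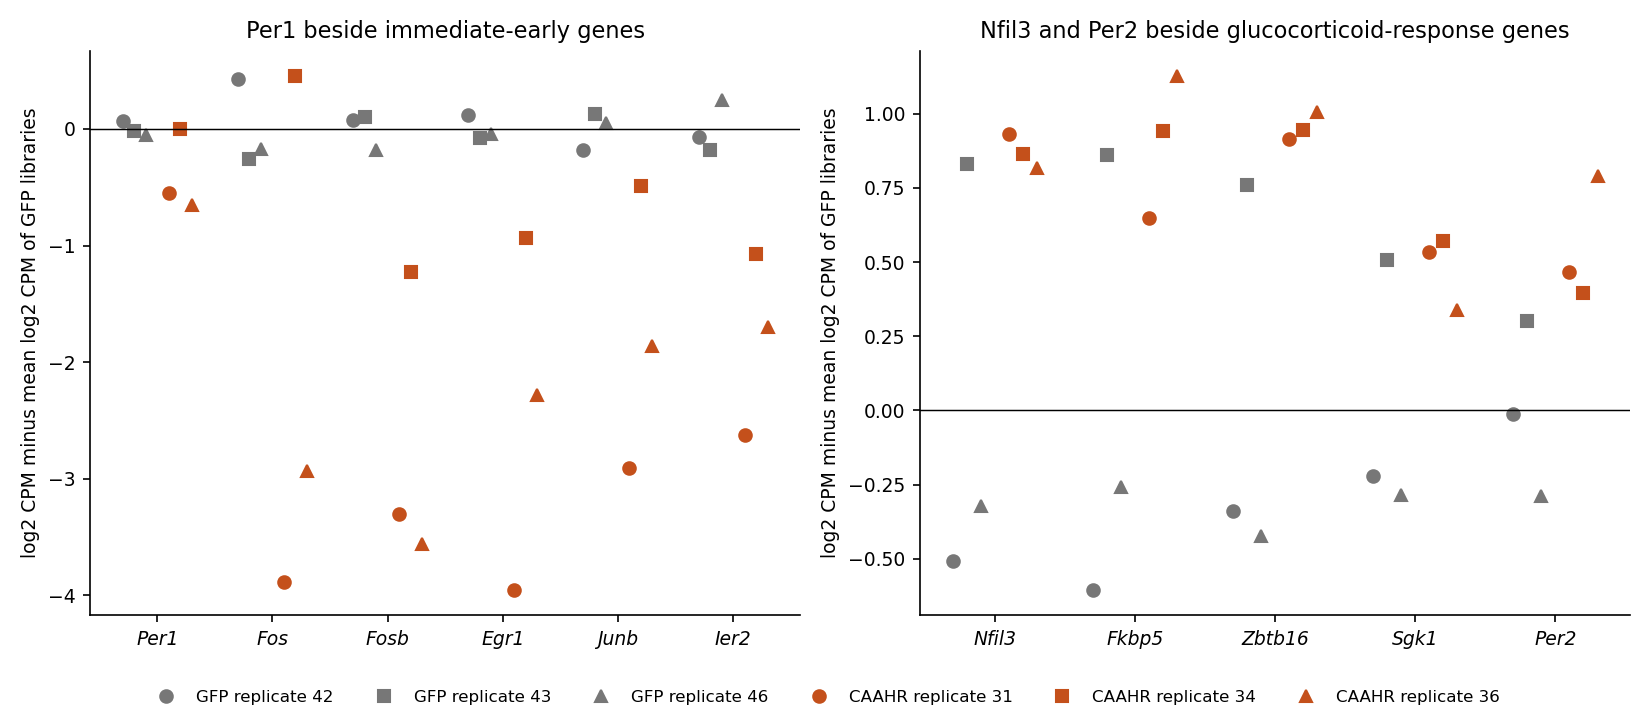
Log2 CPM of single libraries (grey GFP, orange CAAHR) minus the mean log2 CPM of the 3 GFP libraries, for Per1 beside immediate-early genes (left) and for Nfil3 and Per2 beside glucocorticoid-response genes (right). On the left CAAHR replicate 34 (orange square) lay nearest to the GFP libraries, and on the right GFP replicate 43 (grey square) lay near the CAAHR libraries. The genes shown were chosen after their values were seen. Among listed genes not shown, CAAHR replicate 34 lay above every GFP library for Jun, Atf3 and Btg2. For Mt1, Mt2 and Cebpd, GFP replicate 43 was the GFP library farthest from the CAAHR libraries.

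Of the period genes, which encode the repressor scaffolds of the loop, edgeR called 0 of 3 and DESeq2 called 1 (Per2), and at an unadjusted p under 0.05 there were 2 (Per1 and Per2). Per2, on chromosome 1 from 91415982 to 91459324, was at 23.6, 22.4 and 29.4 CPM in CAAHR replicates 31, 34 and 36, and at 16.9, 21.0 and 14.0 CPM in GFP replicates 42, 43 and 46. Every CAAHR library lay above every GFP library, with GFP replicate 43 closest. Per2 had a log2 fold change of 0.54 ± 0.16, 1.46-fold, with a 95% interval of 0.18 to 0.91, and it did not pass (edgeR, adjusted p 0.0752). Its direction held in each of 15 alternatives and it was called in 5 of them, among them DESeq2 (adjusted p 0.0263) and edgeR without GFP replicate 43 (0.71, adjusted p 0.0385).

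Per1, the period gene that also responds acutely to hormones and calcium, is on chromosome 11 from 69095217 to 69109960. It was at 88.0, 128 and 81.7 CPM in CAAHR replicates 31, 34 and 36. In GFP replicates 42, 43 and 46 it was at 134, 127 and 124 CPM. CAAHR replicate 34 lay within the GFP range, while the other CAAHR libraries lay well below it. The log2 fold change was -0.37 ± 0.16, with a 95% interval of -0.74 to -0.01, and it did not pass (edgeR, adjusted p 0.202). Without CAAHR replicate 34 it was -0.61 and passed (edgeR, adjusted p 0.00480). With the slow-fibre covariate, which that fit cannot tell apart from the vector, it was 0.24 ± 0.17.

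Immediate-early genes are transcribed within minutes of nerve activity, stretch or handling. CAAHR replicate 34 was the highest CAAHR library for 10 of the 11 listed, against 35.3% of all tested genes. Fos, chosen after its values were seen, was at 14.1, 285 and 27.3 CPM in CAAHR replicates 31, 34 and 36 and at 281, 174 and 185 CPM in GFP replicates 42, 43 and 46. Egr1 was at 12.7, 102 and 40.1 CPM in the CAAHR libraries and at 186 to 213 CPM in the GFP libraries. Both had their highest CAAHR value in replicate 34, but where that library lay against GFP muscles differed by gene. It was above every GFP library for Fos, Jun, Atf3 and Btg2. It was below every GFP library for Fosb, Egr1, Egr2, Junb and Ier2, and within their range, as for Per1, only for Ier3 and Nr4a1. The 11 genes summed to 404, 1432 and 413 CPM in the CAAHR libraries and to 1104 to 1277 CPM in the GFP libraries. Of the 11, 1 was called by edgeR (Egr2, lower), the median log2 fold change was -0.97, and 3 were called by DESeq2. Their part in the Per1 values was not tested.

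Per3, on chromosome 4 from 151003652 to 151044665, was at 21.9, 23.3 and 25.9 CPM in CAAHR replicates 31, 34 and 36, and at 22.7, 19.1 and 23.6 CPM in GFP replicates 42, 43 and 46. The groups overlapped, and the log2 fold change of 0.12 ± 0.11 had a 95% interval of -0.13 to 0.37 (edgeR, adjusted p 0.579). Its promoter is shown because it was the only 1 of the 9 matched members with a D-box, the sequence through which Dbp, Tef, Hlf and Nfil3 act. The window is on the minus strand at chr4:151044616-151044915 (GRCm38.p6, RefSeq), and capitals mark TTATGTAA.
Per3: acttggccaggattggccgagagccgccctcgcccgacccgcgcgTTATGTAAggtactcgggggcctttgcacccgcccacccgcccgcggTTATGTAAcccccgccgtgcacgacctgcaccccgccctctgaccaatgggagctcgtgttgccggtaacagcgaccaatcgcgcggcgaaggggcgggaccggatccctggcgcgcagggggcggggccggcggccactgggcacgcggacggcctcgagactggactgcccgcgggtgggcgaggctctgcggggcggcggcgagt
It held 2 copies. TTATGTAA or TTACGTAA, on either strand, was in 1.06% of all promoter windows.

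The cryptochromes encode the strongest repressors of BMAL1 and CLOCK, and Ciart (also Chrono) encodes a further repressor of that pair. Cry1, on chromosome 10 from 85131700 to 85185064, was at 10.4, 10.2 and 10.6 CPM in CAAHR replicates 31, 34 and 36, and at 13.5, 11.4 and 12.5 CPM in GFP replicates 42, 43 and 46. The CAAHR libraries were within 1.04-fold of each other and below every GFP library. Cry1 had a log2 fold change of -0.26 ± 0.11, with a 95% interval of -0.50 to -0.03, and it did not pass (edgeR, adjusted p 0.168).

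Ciart, on chromosome 3 from 95878503 to 95882251, was at 9.65, 11.7 and 10.2 CPM in CAAHR replicates 31, 34 and 36, and at 12.4, 12.3 and 15.7 CPM in GFP replicates 42, 43 and 46. Every CAAHR library lay below every GFP library. Ciart had a log2 fold change of -0.36 ± 0.13, with a 95% interval of -0.65 to -0.06 (edgeR, adjusted p 0.137). Neither Ciart nor Cry1 was called in any of 15 alternatives, and both were lower in each.

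The promoters of Ciart and Cry1 are shown because both transcripts were lower in 3 of 3 CAAHR libraries and both hold the E-box CACGTG, the site of BMAL1 and CLOCK, in capitals. Both are on the minus strand in GRCm38.p6 (RefSeq), Ciart at chr3:95882179-95882478 and Cry1 at chr10:85185005-85185304.
Ciart: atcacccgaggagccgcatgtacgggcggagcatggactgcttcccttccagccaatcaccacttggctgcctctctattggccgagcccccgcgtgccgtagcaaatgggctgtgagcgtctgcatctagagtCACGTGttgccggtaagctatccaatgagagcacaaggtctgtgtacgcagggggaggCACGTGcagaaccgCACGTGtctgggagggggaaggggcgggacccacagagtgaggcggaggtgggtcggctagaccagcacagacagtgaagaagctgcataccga
Cry1: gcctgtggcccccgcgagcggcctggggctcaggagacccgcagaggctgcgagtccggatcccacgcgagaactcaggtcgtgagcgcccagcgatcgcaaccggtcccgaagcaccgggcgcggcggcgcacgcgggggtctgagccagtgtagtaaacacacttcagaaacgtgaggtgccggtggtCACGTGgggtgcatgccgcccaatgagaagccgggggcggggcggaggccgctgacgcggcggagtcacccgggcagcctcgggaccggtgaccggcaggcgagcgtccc
Ciart held 3 copies and Cry1 held 1. CACGTG was in 7.15% of all promoter windows and in 5 of the 11 windows of members, the others being those of Per1 (1 of its pair) and Tef (both). Nfil3 held TAGGTCA, a core read by ROR and REV-ERB receptors, which was in 2.61% of all windows on either strand.

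Cry2, on chromosome 2 from 92403646 to 92434043, was at 62.3, 90.7 and 77.4 CPM in CAAHR replicates 31, 34 and 36, and at 70.3, 70.6 and 73.4 CPM in GFP replicates 42, 43 and 46. The GFP libraries were within 1.04-fold of each other and the CAAHR libraries spanned 1.46-fold around them. The log2 fold change was 0.10 ± 0.13, with a 95% interval of -0.19 to 0.40 (edgeR, adjusted p 0.690), and without CAAHR replicate 34 it was -0.04.

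CAAHR replicate 34 was the highest CAAHR library for 6 of the 10 members and replicate 31 was the lowest for 6. Cry2, Ciart, Dbp, Tef and Hlf shared 1 order among CAAHR libraries, replicate 31 below 36 below 34. This order, chosen after the values were seen, was found in 19.3% of all tested genes and in 0 of 10 core loop genes. Per2, Per3 and Cry1 were instead highest in replicate 36. Among GFP libraries, replicates 43 and 46 were each the highest for 4 members, and no order was shared by most.

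Levels of different genes were compared as CPM per kilobase of annotated exon, which sums the exons of all transcripts of a gene. In GFP muscles Tef (35.7 ± 1.54, SD, n = 3) and Dbp (28.4 ± 4.12) were highest, and Per1 (22.8 ± 0.955) followed. Nfil3 (14.4 ± 7.82) did not differ beyond its wide spread from Per1, Cry2 (11.3 ± 0.267) or Ciart (5.95 ± 0.854). In GFP replicate 43 Nfil3, at 23.4, lay above Per1, at 22.5. Ciart lay below Cry2. Cry1 (3.74 ± 0.307) and Hlf (3.67 ± 0.145) were alike within their spread, as were Per2 (2.95 ± 0.601) and Per3 (2.27 ± 0.249). In CAAHR muscles Tef (37.5 ± 5.04) remained at the top of this scale, and Nfil3 (24.0 ± 0.969) and Dbp (22.4 ± 3.76) overlapped within their spread, as did Dbp and Per1 (17.6 ± 4.49), while every Nfil3 value lay above every Per1 value. Cry2 (12.1 ± 2.25) came next. Ciart (4.65 ± 0.456) and Per2 (4.29 ± 0.643) did not differ beyond their spread, nor did Hlf (2.55 ± 0.251) and Per3 (2.46 ± 0.213), which lay below Cry1 (3.12 ± 0.0542).

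Over the 6 libraries, the log2 CPM profile of Dbp was most like those of Cndp2 (Pearson's r 0.994), Spns1 (0.987), Rhbdd3 (0.985) and Nudt6 (0.984), among 8874 genes with a mean of at least 5 CPM. Of these genes, 45 had an r over 0.95, and the 6 points share the split into vectors. Among members Ciart was the most like Dbp (0.924). These values describe 6 points and were not tested.

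The 10 genes analysed here of the core loop that drives the members were mostly without a call. By edgeR 1 was called, lower, against 7.60% of all tested genes called, and their median log2 fold change was -0.24. Before adjustment 2 of the 10 had a p under 0.05. DESeq2 and limma-voom each called 1, beside 1923 and 1402 of the 15847 tested genes. Bhlhe40 (also Dec1), a repressor at E-boxes, was at 128, 114 and 101 CPM in CAAHR replicates 31, 34 and 36 and at 178, 187 and 186 CPM in GFP replicates 42, 43 and 46. The groups were well apart. Its log2 fold change was -0.68 ± 0.11, 1.60-fold lower (edgeR, adjusted p 0.00648). Bhlhe40 kept its call in 14 of 15 alternatives, the exception being the slow-fibre covariate (edgeR, -0.73 ± 0.20, adjusted p 0.0854).

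The activators of the loop were not called. Arntl, which encodes BMAL1, was at 18.5, 16.1 and 17.4 CPM in CAAHR replicates 31, 34 and 36 and at 20.8, 14.1 and 15.7 CPM in GFP replicates 42, 43 and 46, and the groups overlapped fully. Its log2 fold change was 0.04 ± 0.14, with a 95% interval of -0.28 to 0.36. That of Clock was 0.16 ± 0.10, with an interval of -0.07 to 0.39. Their partners Npas2 (-0.20 ± 0.46) and Arntl2 (-0.04 ± 0.28) were at 1.6 CPM or less in every library, and their intervals were wide.

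The repressor Nr1d1 (REV-ERB alpha) was at 145, 129.5 and 161 CPM in the CAAHR libraries and at 206, 138 and 228 CPM in the GFP libraries. GFP replicate 43 was again the 1 GFP library within the CAAHR range. The log2 fold change was -0.39 ± 0.18 (edgeR, adjusted p 0.224), and without GFP replicate 43 it was -0.58 and passed (edgeR, adjusted p 0.0484). Exons of Nr1d1 share 8.55% of their length with Thra, a thyroid hormone receptor gene on the opposite strand, which was called lower (-0.47 ± 0.10). Nr1d2 (0.08 ± 0.11), Rora (-0.28 ± 0.12), Rorb (-0.59 ± 0.45) and Bhlhe41 (-0.36 ± 0.24) were not called, but without CAAHR replicate 34 Bhlhe41 was at -0.65 and passed (edgeR, adjusted p 0.0478).

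**Figure D3:**
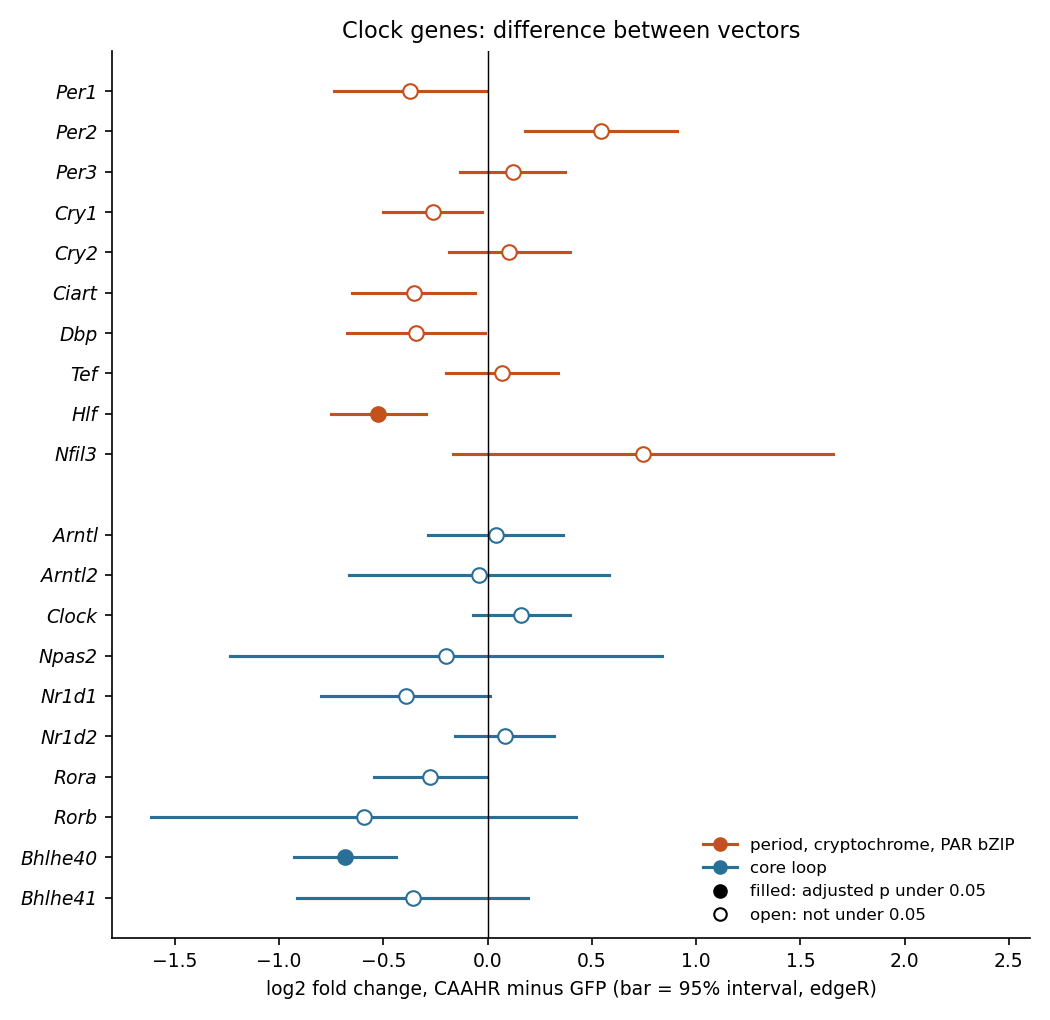
Log2 fold change of CAAHR minus GFP (horizontal axis) with its 95% interval for the 10 members (orange) and 10 core loop genes (blue), filled where the edgeR adjusted p was under 0.05. Hlf and Bhlhe40 were called lower. The intervals of Per3, Cry2, Tef, Nfil3, Arntl, Arntl2, Clock, Npas2, Nr1d1, Nr1d2, Rorb and Bhlhe41 crossed 0.

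Genes that modify clock proteins, such as the casein kinases and the F-box proteins that mark cryptochromes for degradation, had no call. Of 16 listed, 15 were tested and 0 were called by edgeR, DESeq2 or limma-voom, with 2 at an unadjusted p under 0.05 by edgeR (Fbxw11, 0.35 ± 0.12, and Csnk1e, -0.28 ± 0.11). Their median log2 fold change was 0.03. Of 10 listed transcripts known to be rhythmic in many tissues, 2 were called higher and 1 lower. This list shares Usp2 with the modifiers and Klf15, Fkbp5 and Tsc22d3 with the glucocorticoid list. The call of Klf15 therefore counts in both of the latter lists. Por, which passes electrons to cytochrome P450 enzymes, was at 29.0, 33.4 and 39.3 CPM in CAAHR replicates 31, 34 and 36 and at 20.2 to 23.7 CPM in GFP libraries (0.60 ± 0.12, edgeR adjusted p 0.0199). Klf15, a metabolic regulator, had a log2 fold change of 0.61 ± 0.14, and Coq10b, a coenzyme Q binding protein, one of -0.67 ± 0.16. Usp2 (0.03 ± 0.12) and Tsc22d3 (-0.01 ± 0.14), both rhythmic in many tissues, were not called. They were chosen after their values were seen.

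**Figure D4:**
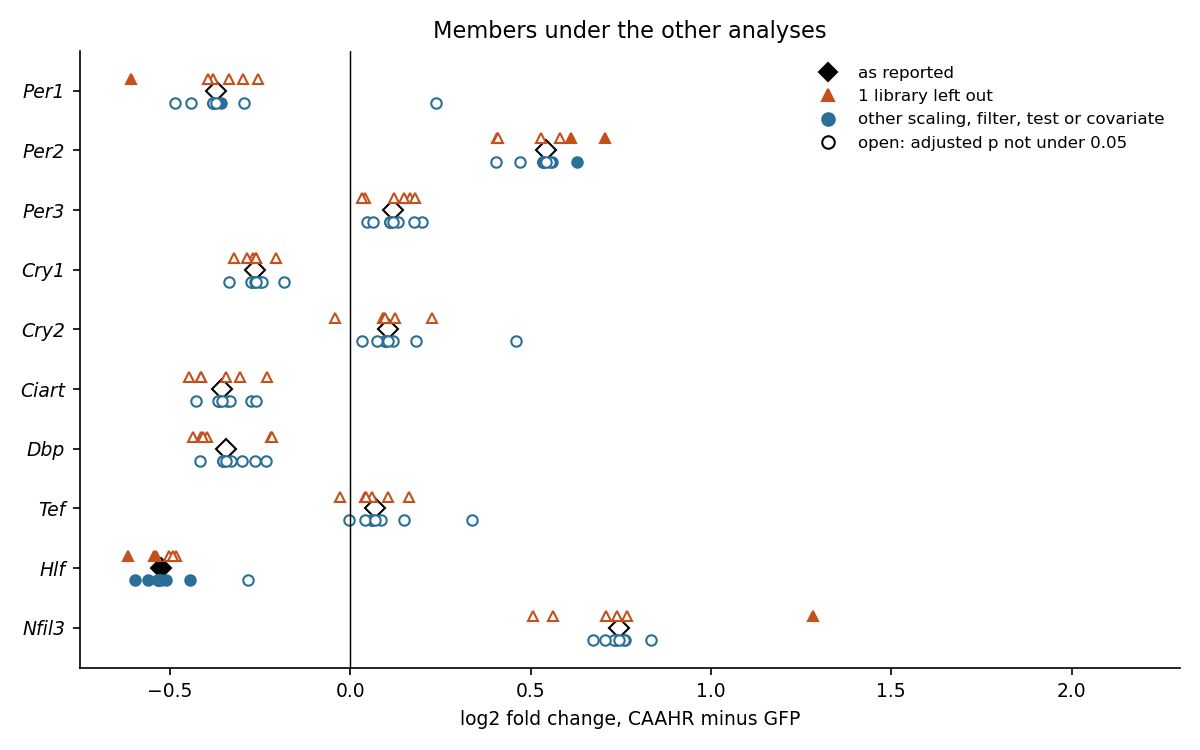
Log2 fold change of CAAHR minus GFP (horizontal axis) of each member as reported (black), with 1 library left out (orange triangles) and with another scaling, filter, test or covariate (blue circles), filled where the adjusted p was under 0.05. Hlf stayed between -0.62 and -0.28, Nfil3 reached 1.28 without GFP replicate 43, and Per1 ranged from -0.61 to 0.24.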

How the data were processed

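As described by the authors, libraries of poly(A) RNA gave paired-end reads. Trimmomatic 0.36 removed adapters, STAR 2.5.2b mapped the reads to GRCm38, and featureCounts took the unique exonic reads of each gene. The deposited values were these raw counts, not normalised or pooled. Counting was by strand only if the kit was stranded, which was not given in the sources used here. Groups came from the treatment labels and replicate numbers from the titles. The study describes the libraries as muscles of male mice, 3 per group, so p-values measure the spread between these muscles.

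The counts were fitted with edgeR 4.0.16 under R 4.3.3 (filterByExpr, TMM, robust quasi-likelihood F test, Benjamini-Hochberg adjustment, threshold 0.05), tested on simulated counts. SEs came from the F statistic. Alternatives were other scalings and filters, DESeq2 1.42.0 (the study's tool), limma 3.58.1 voom, a slow-fibre covariate, and leaving out each library. Positions and exon lengths came from GENCODE release 21 for mouse (GRCm38), which held 99.3% of the table's genes, and promoters from RefSeq. Named were all members, the core loop genes, at most 4 genes of each other list by p, the genes most like Dbp, and others as stated. A core loop gene and a gene like Dbp are not reported here. Members, lists and alternatives were chosen with earlier results of these data known.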

Additional observations from a re-analysis of the deposited data

How the results depend on the processing

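With 3 libraries per group, precision limits these results, and members that missed the threshold are not shown to be alike between groups. No paired analysis was possible because replicate numbers differed between the vectors. Of 150 checks of single members, 134 gave the same direction and call, 4 lost and 8 gained a call, and 4 changed sign. Of 148 checks of core loop genes these numbers were 131, 1, 3 and 13. The cause of these differences was not tested.

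The count of members called was 1 as reported. It was 2 with library size only and with DESeq2 (Hlf and Per2 in both), 3 without a filter on low counts (Per1 and Per2 besides Hlf) and, by edgeR with slow-fibre content as a covariate, 0. In that fit Cry2 alone had an unadjusted p under 0.05, a count of 1. The covariate was higher in every CAAHR library than in any GFP library, so that fit cannot tell it apart from the vector. Members called higher were 0 as reported and 1 with library size only, with DESeq2 and without a filter. Members called lower were 1 as reported, 2 without a filter and 0 with the covariate. Leaving out single libraries gave from 0 to 3 members called, 0 to 2 higher and 0 to 2 lower. It gave 3 without CAAHR replicate 34 (Per1, Per2 and Hlf) and 2 without GFP replicate 43 (Per2 and Nfil3). The core loop count of 1 became 0 with the covariate and 2 without a filter (Nr1d1 besides Bhlhe40), and ranged from 1 to 2 with a library left out. The count of all genes called was 1205, 2470 without a filter, 1923 with DESeq2, 436 with the covariate and from 535 to 1698 with a library left out. Of all calls 60.1% were lower with TMM, 73.4% with upper quartile scaling and 40.7% with library size only.

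Of the log2 fold changes that changed sign, Per1 came to 0.24 and Arntl2 to 0.48 with the covariate. With it Rora came to 0.040 and Bhlhe41 to 0.11. With upper quartile scaling Tef came to -0.0023 and Arntl to -0.033, with library size only Arntl2 to 0.034, and with limma-voom Npas2 to 0.022. With 1 library left out Cry2 ranged from -0.042 to 0.23, Tef from -0.027 to 0.16, Arntl from -0.074 to 0.22, Arntl2 from -0.23 to 0.21 and Npas2 from -0.52 to 0.085. The values were -0.015, -0.074 and -0.0097 for Arntl without CAAHR replicate 31, GFP replicate 43 and GFP replicate 46, 0.031 and 0.21 for Arntl2 without CAAHR replicate 36 and GFP replicate 42, and 0.034 and 0.085 for Npas2 without CAAHR replicate 34 and GFP replicate 42.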

Other observations

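Within a library, the level of Per2 was set against that of Per1 as a difference of log2 CPM. It was -1.90, -2.52 and -1.47 in CAAHR replicates 31, 34 and 36 and -3.00, -2.60 and -3.15 in GFP replicates 42, 43 and 46. The same difference for the D-box repressor Nfil3 against the activator Dbp was -0.09, -0.62 and -0.63 in the CAAHR libraries and -2.07, -0.71 and -2.22 in the GFP libraries. On both scales the groups did not overlap, with CAAHR replicate 34 and GFP replicate 43 nearest to each other for Per2 against Per1. For Nfil3 against Tef, another D-box activator, the groups did overlap. The difference was -2.31, -2.76 and -2.70 in the CAAHR libraries and -3.89, -2.64 and -3.67 in the GFP libraries. Cry2 against Cry1 overlapped too. Per2 against Dbp did not, which was fixed in advance because Per2 was higher and Dbp lower in every CAAHR library than in any GFP library. These pairs were chosen after their values were seen, the scale compares libraries and not the amounts of the paired genes, and no test was run.

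Other cell types were read from marker lists. Of 6 adipocyte genes 3 were called lower in CAAHR muscles by edgeR, with sums of 3.69 to 21.3 CPM against 36.6 to 98.8 CPM. Of 6 Schwann cell and nerve genes 0 were called by edgeR, with 2 at an unadjusted p under 0.05 and 2 by DESeq2. Of 6 endothelial and 6 fibroblast genes 0 were called by edgeR, DESeq2 or limma-voom, and 0 were at an unadjusted p under 0.05. Their part in the clock gene values was not tested.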
